A study of Mus musculus with 6 samples.

Results

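The comparison described here is the late step of the response to silica in lungs of WT mice, the transcriptome of CD45-negative lung cells at day 40 set against that at day 28 after silica was given by aspiration. It rests on 2 of the 6 arrays of the study, WT day 40 and WT day 28. The other arrays hold the same cell fraction from Ccr2KO mice at day 40 and day 28, and from untreated Ccr2KO and WT mice. Ccr2KO mice lack the chemokine receptor CCR2. All mice were on the C57BL/6J background and were 7 to 9 weeks old at the start. Perfused lungs were digested with enzymes, red cells and silica were taken out on Percoll gradients, and CD45-negative cells were obtained by magnetic sorting. Each array carried 200 ng of labelled RNA from 1 pool of 3 biological replicates. There is thus 1 array per genotype and day, the WT difference has no replicate check, and a pool hides the spread between animals.

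Silicosis is a chronic lung disease in which inhaled silica crystals are taken up by macrophages, injure them, and keep a cycle of inflammation going that ends in fibrotic nodules. CCR2 lets monocytes leave the bone marrow and enter inflamed tissue, where many become macrophages. CD45 is the surface marker shared by nearly all leukocytes, so a CD45-negative fraction holds epithelium, endothelium, fibroblasts, smooth muscle and mesothelium, together with any leukocytes that escaped the sort. Red cells lack CD45 as well.

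Each gene was read from its brightest probe as log2 fluorescence signal minus the 75th percentile of its array, so a level of 0 is the 75th percentile and a difference of 1 is 2-fold. The 75th percentile itself was a signal of 878 at WT day 40 and 1159 at WT day 28, and 58.1 and 61.9% of probes were well above background. Repeated spots of a probe had a median SD of 0.05 to 0.07 log2 units on the 6 arrays. Both WT arrays lay in row 2 of the slide with Ccr2KO day 40, whereas Ccr2KO day 28 lay in row 1 with the untreated arrays. The WT difference is therefore a difference within 1 row, and the Ccr2KO difference spans both. Ptprc, the gene for CD45, was well above background on all 4 silica arrays, so the fraction was not free of leukocyte RNA on either day.

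Of 16160 genes measured on at least 1 of the 2 WT arrays, 392 read at least 2-fold higher at day 40 (2.43%) and 1008 at least 2-fold lower (6.24%). The median over all genes was 0.06. At 4-fold the imbalance was wider, with 117 genes higher and 483 lower. Genes of leukocytes made up 128 of the 1008 lower genes and 2 of the 392 higher ones, while genes of stromal cells (structural lung cells) made up 3 of the lower and 17 of the higher. The lists were assembled from textbook markers, with earlier results of these data known. They were 7 leukocyte lists with 162 measured genes, 18 stromal lists with 287, and 2 lists for platelets and red cells with 20. Over the leukocyte genes the median difference was −2.08, a 4.23-fold lower signal, with 128 of 162 at least 2-fold lower. Over the stromal genes it was 0.23, with 208 of 287 above 0 beside 9587 of all 16160 genes, and in the authors' deposited table, which is not scaled between arrays and in which the median of all genes was −0.33, the stromal median was −0.16. In bulk RNA, fewer cells of a type and less RNA per cell cannot be told apart. For leukocyte genes, neither can a change in the lung and a difference between the 2 pools in how many leukocytes escaped the sort, which was not tested.

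**Figure D1:**
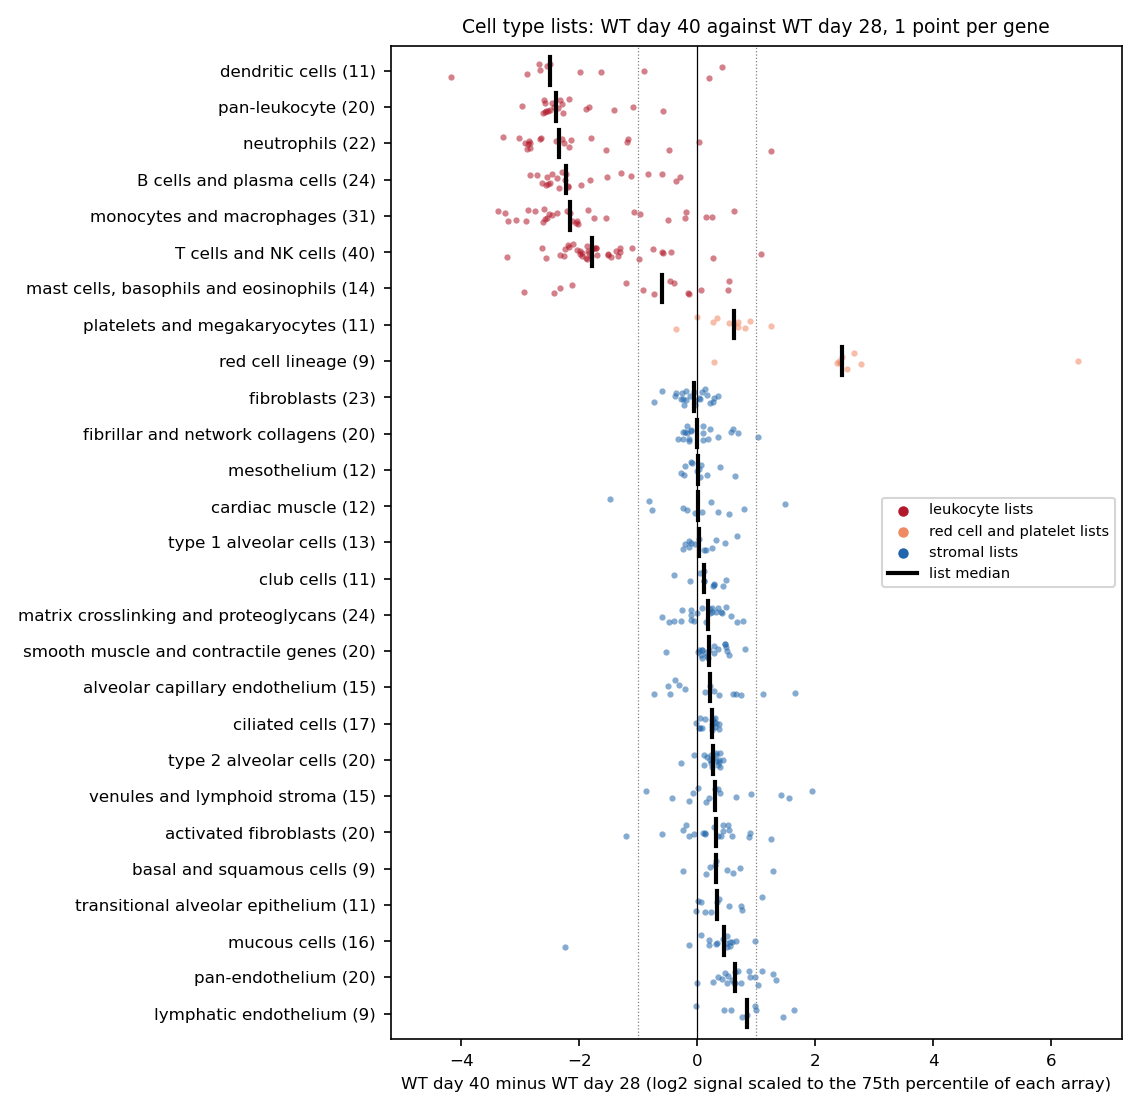
Log2 difference WT day 40 minus WT day 28 (x axis) for every measured gene of the cell type lists (1 point per gene, number of genes in brackets, black bars list medians, dotted lines 2-fold). Every leukocyte list has its median to the left of 0, from −2.50 for dendritic cells to −0.60 for mast cells, basophils and eosinophils, the red cell lineage lies at 2.45, and the stromal lists lie between −0.05 and 0.84.

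The same step was measured independently in Ccr2KO mice, on arrays that the WT comparison does not use. There, 389 of the 16160 genes read at least 2-fold higher at day 40 (2.41%) and 745 at least 2-fold lower (4.61%). Of the 1008 genes lower in WT, 625 were also at least 2-fold lower in Ccr2KO cells (62.0%), and of the 392 higher in WT, 108 were at least 2-fold higher in Ccr2KO cells (27.6%). Where both WT arrays measured the gene well above background, 503 of 649 lower genes passed 2-fold in Ccr2KO cells as well (77.5%), against 59 of 241 higher genes (24.5%). Across all 16160 genes the WT and Ccr2KO differences had a Pearson r of 0.55. This r describes genes, which are not independent replicates.

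A linear model of day and genotype (limma, 6 arrays, 2 residual degrees of freedom, Benjamini-Hochberg adjustment over all 16160 genes) used the 2 genotypes as the replicates of each day. The untreated pair adds to its estimate of the spread. A gene can thus fail to pass because its genotypes differ otherwise when untreated than after silica. At an adjusted p below 0.05 the model called 32 genes that rose (0.198%) and 418 that fell (2.59%) at day 40 against day 28. Of the 418, 74 belonged to leukocyte lists, 1 to a stromal list and none to the platelet or red cell lists, and of the 32, 3 belonged to stromal lists and none to leukocyte lists. The model has so few degrees of freedom that these calls depend on single arrays: leaving out WT day 28, WT day 40 or Ccr2KO day 28 left no call, leaving out Ccr2KO day 40 left 25, and a term for the slide row left none, with 1754 genes then at an unadjusted p below 0.05. Only at day 28 did the 2 arrays of a day lie in different rows. The row term therefore gives the same fit as leaving out Ccr2KO day 28, and the row cannot be told apart from that array. The words rose and fell are kept below for genes that passed the model of day and genotype over 6 arrays, and adjusted p-values are from that model. A gene well above background on 1 WT array only passed the filter through the day on which it read high. Its call sets that signal against a WT value not above background, so its adjusted p-value is no separate support. To set beside the list counts below, the shares of all genes were 2.43% at least 2-fold higher and 6.24% lower in WT cells.

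**Figure D2:**
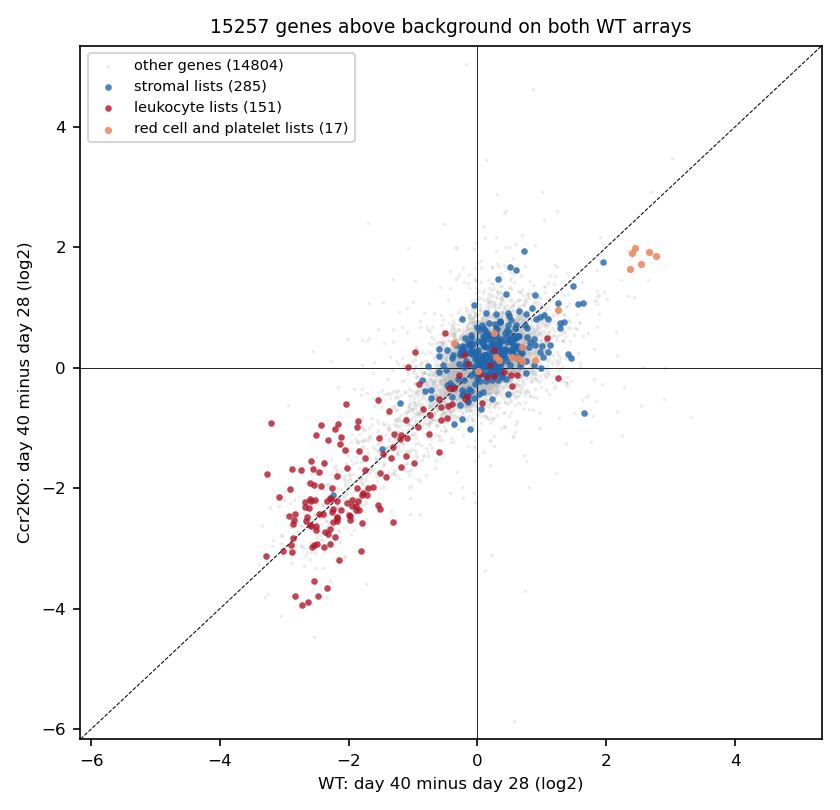
Log2 difference day 40 minus day 28 in WT cells (x axis) against Ccr2KO cells (y axis) for the 15257 genes well above background on both WT arrays, 1 point per gene, with the 151 leukocyte, 17 red cell and platelet and 285 stromal genes in colour and a dashed line where both differences are equal. Leukocyte genes lie mainly at the lower left, stromal genes lie around 0 with most a little above it in both genotypes, and the globin genes lie at the upper right.

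Genes that most leukocytes share were lower at day 40 in every case: all 20 measured pan-leukocyte genes read below 0, 19 of them at least 2-fold lower, with a median of −2.40 in WT and −2.38 in Ccr2KO cells, and 17 of the 20 fell. Ptprc read 0.29 at WT day 40 and 2.62 at WT day 28, and −0.61 and 2.14 on the same days in Ccr2KO cells. Both day 40 arrays lay below both day 28 arrays (fitted difference −2.54 ± 0.18, log2 difference ± SE, limma adjusted p = 0.0165). Cd53, a tetraspanin of leukocyte membranes, read −1.19 at WT day 40 and 1.32 at WT day 28, and −1.83 and 0.86 in Ccr2KO cells, again with no overlap between the days (−2.60 ± 0.14, limma adjusted p = 0.0154). Vav1, a signalling protein downstream of antigen receptors, read 0.56 at WT day 40 and 3.16 at WT day 28, and 0.19 and 2.80 in Ccr2KO cells (−2.61 ± 0.21, limma adjusted p = 0.0177). The differences of Cd52, a short surface glycoprotein of lymphocytes and monocytes, Tyrobp, a signalling adaptor of myeloid and NK cell receptors, and Ikzf1, a lymphoid transcription factor, lay between −2.61 and −2.57 in WT cells, and all 3 fell. Spi1, which encodes the transcription factor PU.1, was well above background at WT day 28 and not at WT day 40, where it read at least 7.86-fold lower (limma adjusted p = 0.0628). The smallest difference of the list was that of Srgn, the granule proteoglycan serglycin, at 5.58 at WT day 40 and 6.15 at WT day 28, a gene that endothelium also expresses.

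PU.1 is needed for the development of myeloid and B cells and binds purine-rich sites in the promoters of many of their genes. The PU.1 motif GAGGAAGT, searched on both strands in a window of 300 bases around each start site (RefSeq, GRCm38.p6), was found in 14 of 134 promoters of the leukocyte lists (10.4%), 6 of 219 of the stromal lists (2.74%) and 887 of all 27025 (3.28%). The motif was chosen after the differences had been seen, and a match describes the letters only, not occupancy. The promoters of Cd53 (chr3:106790100-106790399, minus strand) and Vav1 (chr17:57278850-57279149, plus strand) are shown, 5′ to 3′, because both genes fell by a like amount in both genotypes and each holds 1 match. Capitals mark the motif, which in Cd53 is on the opposite strand and starts at base 257, and in Vav1 starts at base 240.
Cd53: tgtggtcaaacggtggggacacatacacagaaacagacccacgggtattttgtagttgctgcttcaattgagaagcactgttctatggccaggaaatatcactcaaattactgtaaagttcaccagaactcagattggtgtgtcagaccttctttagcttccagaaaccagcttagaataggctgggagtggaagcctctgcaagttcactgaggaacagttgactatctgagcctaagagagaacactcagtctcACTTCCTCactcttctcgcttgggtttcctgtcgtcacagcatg
Vav1: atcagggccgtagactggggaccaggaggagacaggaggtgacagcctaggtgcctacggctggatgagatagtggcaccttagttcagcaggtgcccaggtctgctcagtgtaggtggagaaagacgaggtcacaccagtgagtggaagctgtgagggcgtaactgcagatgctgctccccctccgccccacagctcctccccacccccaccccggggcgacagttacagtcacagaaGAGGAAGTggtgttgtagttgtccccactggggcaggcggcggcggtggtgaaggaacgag

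Among the leukocyte types, neutrophil genes had a median of −2.34 over 22 measured members (19 at least 2-fold lower, 15 fell), with −2.49 in Ccr2KO cells. S100a8, a subunit of the calcium-binding protein calprotectin that fills the neutrophil cytosol, read 3.69 at WT day 40 and 6.53 at WT day 28, and 4.44 and 6.96 in Ccr2KO cells. The day 40 arrays were lower in both genotypes (−2.68 ± 0.13, limma adjusted p = 0.0154). Its partner S100a9 read 5.29 and 7.54 in WT cells on the same days (−2.13 ± 0.13, limma adjusted p = 0.0154). Cxcr2, the receptor by which neutrophils follow CXC chemokines, had the largest fall of the list, at −3.27 at WT day 40 and 0.02 at WT day 28 (−3.21 ± 0.20, limma adjusted p = 0.0155). Elane, neutrophil elastase, went the other way in WT cells (4.12 at day 40 and 2.87 at day 28) but not in Ccr2KO cells (3.26 and 3.43), and Csf3r, the G-CSF receptor, read 6.60 and 6.56 in WT cells.

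B cell and plasma cell genes had a median of −2.23 over 24 measured members (20 at least 2-fold lower, 14 fell), with −2.69 in Ccr2KO cells. Ms4a1, the B cell antigen CD20, read 0.16 at WT day 40 and 2.88 at WT day 28, and −1.37 and 2.58 in Ccr2KO cells (−3.33 ± 0.34, limma adjusted p = 0.0285). Cd79b, a signalling chain of the B cell receptor, read 1.04 and 3.53 in WT cells and 0.34 and 3.27 in Ccr2KO cells (−2.71 ± 0.15, limma adjusted p = 0.0154). Both days were apart in both genotypes. Jchain, which joins antibody polymers made by plasma cells, had a smaller difference, at 3.87 at WT day 40 and 5.41 at WT day 28, and did not pass (limma adjusted p = 0.416).

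T cell and NK cell genes had a median of −1.79 over 40 measured members (33 at least 2-fold lower, 21 fell). Cd3g, a chain of the T cell receptor complex, read −1.31 at WT day 40 and 0.93 at WT day 28, and −1.14 and 1.22 in Ccr2KO cells (−2.30 ± 0.12, limma adjusted p = 0.0154). Foxp3, the master transcription factor of regulatory T cells, read −3.59 at WT day 40 and −1.81 at WT day 28 (−1.93 ± 0.13, limma adjusted p = 0.0161). The exceptions were Gzmk, a granzyme of memory T cells, at 0.23 and −0.85 in WT cells, and Cd4, at 3.56 and 3.29. Dendritic cell genes had a median of −2.50 over 11 measured members (8 at least 2-fold lower, 5 fell). Ccr7, the receptor that guides mature dendritic cells and naive T cells to lymph nodes, read 2.29 at WT day 40 and 4.80 at WT day 28 (−2.56 ± 0.20, limma adjusted p = 0.0175). Ccl17, a chemokine of mature dendritic cells that attracts T cells, read −0.67 and 2.02 (−2.46 ± 0.15, limma adjusted p = 0.0154).

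Monocyte and macrophage genes were lower in WT cells by as much as those of lymphocytes, with a median of −2.16 over 31 measured members and 24 at least 2-fold lower. In Ccr2KO cells their median was −1.18, with 18 of the 31 at least 2-fold lower. Only 1 of the 31 fell. That gene was Csf1r, the receptor for the macrophage growth factor M-CSF, at 3.23 at WT day 40 and 5.29 at WT day 28, and 2.84 and 4.20 in Ccr2KO cells (−1.71 ± 0.20, limma adjusted p = 0.0389). Chil3, a chitinase-like lectin of alveolar macrophages, read 1.42 at WT day 40 and 4.62 at WT day 28, and 3.82 and 4.74 in Ccr2KO cells, so that the day 40 array of Ccr2KO cells lay nearer to both day 28 arrays than to WT day 40 (limma adjusted p = 0.433). F13a1, a coagulation factor subunit made by monocytes, read −0.33 and 2.93 in WT cells and −2.02 and −0.26 in Ccr2KO cells. Ccr2 itself read −1.70 at WT day 40 and 1.38 at WT day 28, and −3.64 and −1.51 in Ccr2KO cells (limma adjusted p = 0.26), with the place of its probe relative to the deleted sequence not given in the sources used here. Trem2, a lipid receptor of tissue macrophages, had a WT difference of −2.04 and a Ccr2KO difference of −0.59, and C1qa, a complement chain made by macrophages, −2.21 and −1.02. The difference between genotypes of these changes has 1 array per genotype and day behind it and was not tested. Gpnmb, a glycoprotein of lipid-laden macrophages, read 2.03 at WT day 40 and 2.54 at WT day 28, and 3.52 and 2.94 in Ccr2KO cells.

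Mast cell, basophil and eosinophil genes were the least shifted, with a median of −0.60 over 14 measured members and 5 at least 2-fold lower. Cpa3, the carboxypeptidase of mast cell granules, read −0.86 at WT day 40 and −0.41 at WT day 28. Hpgds, a prostaglandin D2 synthase, was at least 1.80-fold lower at WT day 40, where it was not well above background, and it fell (limma adjusted p = 0.0159). Some leukocyte genes have more than 1 probe, and those probes did not always read alike: the brightest probes of Itgam, the integrin CD11b, and Siglech, a lectin of plasmacytoid dendritic cells, had WT differences of 0.25 and 0.20, while the lowest difference among their other probes was −1.95 and −2.63.

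Set beside the WT untreated array, which lay in the other slide row, leukocyte genes were above it at day 28 and below it at day 40. The median over the 162 leukocyte genes was 1.27 at day 28 and −0.51 at day 40, relative to untreated, and 109 of the 162 read below untreated at day 40, beside 7594 of all 16160 genes. Their median level was −0.59 untreated, 0.91 at day 28 and −0.93 at day 40 in WT cells, and −1.03, 0.87 and −0.69 in Ccr2KO cells, so that day 40 was below untreated in WT and above it in Ccr2KO cells. The Ccr2KO lists were divided. Day 40 was below untreated for pan-leukocyte (0.35 and 0.84), neutrophil (0.22 and 0.40), B cell (−1.44 and −0.45) and T and NK cell genes (−1.39 and −1.21). It was above untreated for monocyte and macrophage (−0.48 and −1.28), dendritic cell (−2.07 and −2.30) and mast cell, basophil and eosinophil genes (−0.81 and −2.88). For the pan-leukocyte list the WT medians relative to untreated were 1.15 at day 28 and −1.15 at day 40, with 19 of 20 genes below untreated at day 40. Neutrophil genes differed from this, with 2.42 at day 28 and 0.05 at day 40, and mast cell, basophil and eosinophil genes read above untreated on both days, with 1.52 and 0.89. Both medians of a list share the untreated array.

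Red cell genes read higher at day 40. Of 9 measured genes of the red cell lineage, 8 were at least 2-fold higher in WT cells, with a median of 2.45 (1.72 in Ccr2KO cells, 2.05 in WT cells in the authors' deposited table), and none passed the model. Hbb-bt, an adult beta globin, read 3.65 at WT day 40 and 1.20 at WT day 28, and 2.40 and 0.41 in Ccr2KO cells, with 4.40 at WT untreated (limma adjusted p = 0.0589). Both day 40 arrays lay above both day 28 arrays and below the untreated one. Globin genes resemble each other in sequence, so their probes may share signal. Platelet and megakaryocyte genes had a median of 0.62 in WT and 0.16 in Ccr2KO cells, with Gp9, a subunit of the platelet receptor for von Willebrand factor, at −1.93 at WT day 40 and −3.19 at WT day 28.

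**Figure D3:**
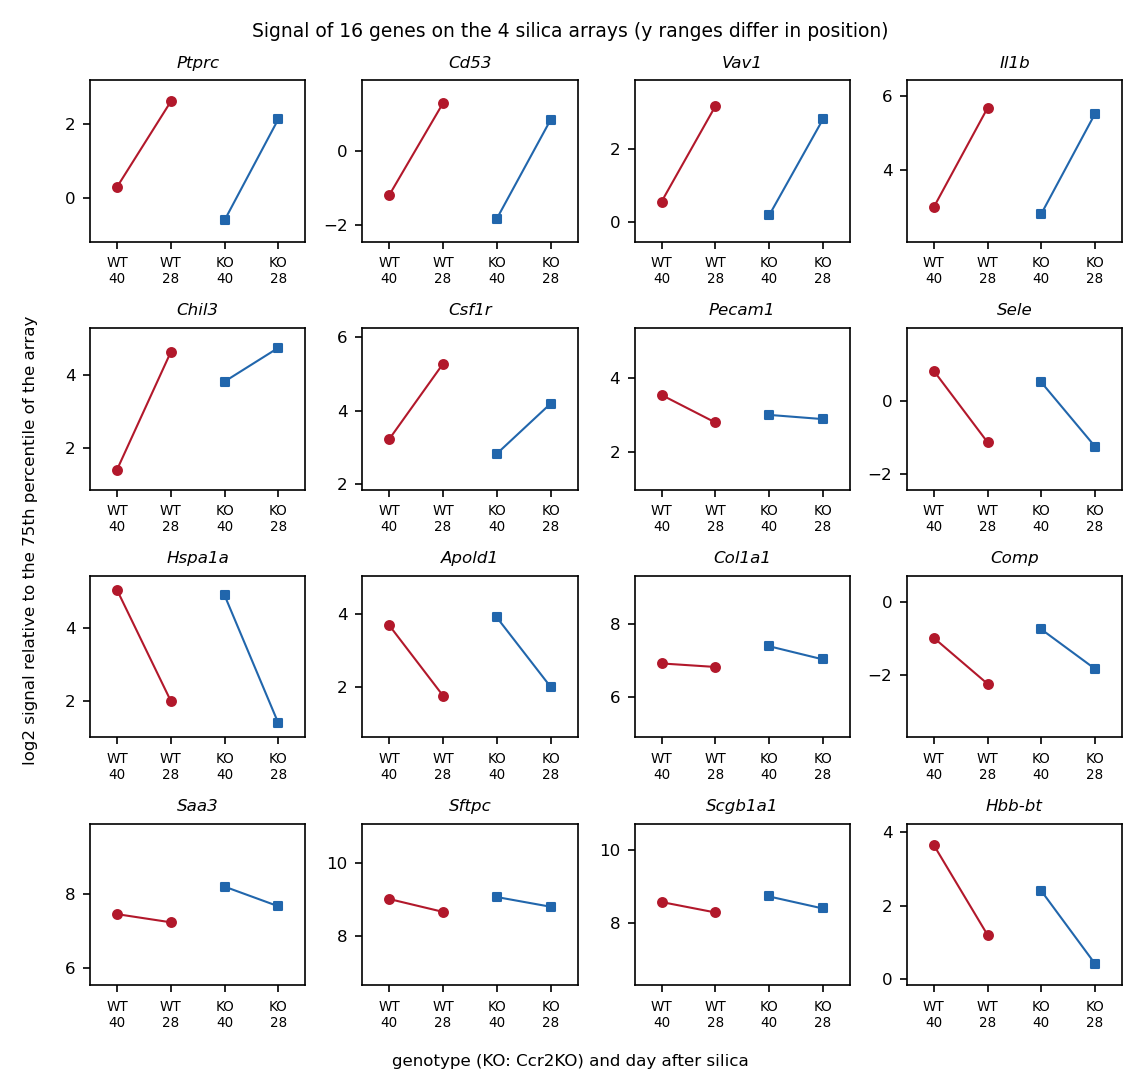
Level on the scaled log2 scale, with 0 at the array's 75th percentile (y axis, ranges differ in position) for 16 genes at day 40 and day 28 in WT (circles) and Ccr2KO cells (squares), 1 array per point. Ptprc, Cd53, Vav1 and Il1b are lower at day 40 in both genotypes, Apold1 and Hspa1a are higher, and Sftpc, Scgb1a1 and Col1a1 differ by no more than 0.36 between the days.

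In contrast to leukocyte genes, endothelial genes read higher at day 40. All 20 measured pan-endothelial genes had a WT difference at or above 0, beside 9587 of all 16160 genes above 0. Their median was 0.64 beside 0.06 over all genes (0.23 beside −0.33 in the authors' deposited table). Of the 20, 4 were at least 2-fold higher (20%), beside 2.43% of all genes. In Ccr2KO cells the median was 0.33, and none of the 20 passed the model. Pecam1, the junction molecule CD31, read 3.54 at WT day 40 and 2.79 at WT day 28, and 3.00 and 2.89 in Ccr2KO cells (limma adjusted p = 0.381). Emcn, a sialomucin of capillary and venous endothelium, read 3.08 and 1.80 in WT cells and 2.69 and 2.03 in Ccr2KO cells, so that the days did not overlap (0.97 ± 0.20, limma adjusted p = 0.127). Sox17, a transcription factor of arterial endothelium, read 3.82 and 2.48, and Tek, the angiopoietin receptor TIE2, 2.45 and 1.35 in WT cells. Relative to WT untreated, the median of the list was −0.50 at day 28 and 0.24 at day 40.

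Larger differences of single genes were seen in the lists of venules and lymphatics. Sele, the adhesion molecule E-selectin that inflamed venules display to leukocytes, read 0.82 at WT day 40 and −1.12 at WT day 28, and 0.51 and −1.24 in Ccr2KO cells (1.85 ± 0.40, limma adjusted p = 0.147). Its relative Selp, P-selectin, read 3.44 and 1.88 in WT cells and 3.07 and 2.0 in Ccr2KO cells (1.31 ± 0.39, limma adjusted p = 0.24). For both selectins the day 40 arrays lay above the day 28 arrays without passing the test. Glycam1, a sulphated ligand of L-selectin on high endothelial venules, read −0.13 and −1.54 in WT cells, with a Ccr2KO difference of 0.22, while Vcam1, a further leukocyte ligand, read 4.73 and 4.72. The list of lymphatic endothelium had a median of 0.84 over 9 measured genes (0.36 in Ccr2KO cells), led by Nts, which encodes neurotensin, at 2.54 at WT day 40 and 0.90 at WT day 28. Prox1, the transcription factor that sets lymphatic identity, read −2.73 and −3.71. The capillary list was closer to all genes, with a median of 0.22, and its highest member in WT cells, Cyp1a1, a cytochrome induced through the aryl hydrocarbon receptor, had a difference of 1.65 in WT and −0.76 in Ccr2KO cells.

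Genes of fibrosis differed little between the days. Fibroblast genes had a median of −0.05 over 23 members and collagens of −0.01 over 20, with no fibroblast gene and 1 collagen (Col15a1, 1.03) past 2-fold. Col1a1, a chain of type I collagen, read 6.92 at WT day 40 and 6.83 at WT day 28, and 7.39 and 7.04 in Ccr2KO cells. Col3a1, the chain of type III collagen, had a WT difference of −0.18, and Fn1, fibronectin, read 7.50 at WT day 40 and 7.36 at WT day 28. Acta2, the smooth muscle actin of myofibroblasts, read 6.15 and 5.66 in WT cells and 6.89 and 6.03 in Ccr2KO cells. Relative to WT untreated, the collagen median was 1.22 at day 28 and 1.41 at day 40, and 14 of 20 collagens were at least 2-fold above untreated on each day, beside 1600 of all 16160 genes at day 28 and 1325 at day 40.

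Among 20 measured genes of activated fibroblasts, with a median of 0.32 (−0.05 in the authors' deposited table), 2 rose. Comp, a matrix protein that bridges collagen fibrils, read −0.99 at WT day 40 and −2.24 at WT day 28, and −0.75 and −1.83 in Ccr2KO cells (1.16 ± 0.15, limma adjusted p = 0.046). Cthrc1, a secreted protein that marks matrix-producing fibroblasts in injured lung, read −0.23 and −1.12 in WT cells and 0.47 and −0.73 in Ccr2KO cells (1.05 ± 0.14, limma adjusted p = 0.0489). Both day 40 arrays lay above both day 28 arrays for each gene. Spp1, osteopontin, a secreted phosphoprotein that macrophages as well as fibroblasts make, was the 1 member at least 2-fold lower, at 1.94 at WT day 40 and 3.15 at WT day 28, with 2.89 and 3.47 in Ccr2KO cells (limma adjusted p = 0.173). Timp1, an inhibitor of matrix proteases, read 5.24 and 5.43, and Grem1, a secreted antagonist of BMPs, 2.76 and 2.24. Relative to WT untreated, 13 of the 20 genes were at least 2-fold higher at day 28 and 19 at day 40, with medians of 2.30 and 2.44, and over all 16160 genes 1600 and 1325 were so. Tgfbi, a TGF-beta-induced matrix protein that macrophages also secrete, was lower, at 3.72 at WT day 40 and 5.33 at WT day 28.

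Epithelial genes of the type 2, type 1, club and ciliated cell lists showed small differences. Sftpc, the surfactant protein of type 2 alveolar cells, read 9.02 at WT day 40 and 8.67 at WT day 28, Ager, the receptor that marks type 1 alveolar cells, 3.23 and 2.91, and Scgb1a1, the secretoglobin of club cells, 8.57 and 8.29. The lists of type 2, type 1, club and ciliated cells had medians of 0.26, 0.02, 0.12 and 0.26, with no member past 2-fold. Hbegf, an EGF receptor ligand in the list of transitional alveolar epithelium, had WT and Ccr2KO differences of 1.1 and 0.80. Of the keratins of basal cells, Krt15 had a WT difference of 1.28 and Krt5 of 0.50, with 0.74 and 1.67 in Ccr2KO cells. Mucous cell genes had a median of 0.46, and the exception was Tff1, a trefoil peptide of mucous epithelium, at −1.99 at WT day 40 and 0.25 at WT day 28, and −2.20 and −0.08 in Ccr2KO cells (limma adjusted p = 0.2). On the untreated arrays Tff1 read −7.90 in WT and −6.19 in Ccr2KO cells, so all 4 silica arrays lay far above them.

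Signalling and stress genes were read through 18 further lists. Of 29 measured chemokines and cytokines, 11 were at least 2-fold lower in WT cells (37.9%, beside 6.24% of all genes). In the other direction, 1 was at least 2-fold higher (3.45%, beside 2.43%). In the model 3 of the 29 fell, beside 2.59% of all genes. Il1b, interleukin 1 beta, the product of the silica-sensing inflammasome pathway, read 2.98 at WT day 40 and 5.68 at WT day 28, and 2.80 and 5.52 in Ccr2KO cells (−2.71 ± 0.11, limma adjusted p = 0.0154). Cxcl2 and Cxcl3, chemokines that attract neutrophils, fell as well, with Cxcl2 at 1.68 and 3.73 in WT cells (−1.96 ± 0.16, limma adjusted p = 0.0177). Tnf, which encodes tumour necrosis factor, read −0.76 at WT day 40 and 1.22 at WT day 28 (limma adjusted p = 0.0663). For comparison, the pan-leukocyte list had a median difference of −2.40 in WT cells. Which cells the transcripts of these cytokines came from was not tested. Ccl2, the main ligand of CCR2, read 4.44 and 4.41 in WT cells and 5.83 and 5.23 in Ccr2KO cells, and Il6 read 5.61 and 5.05 in WT cells and 5.98 and 4.16 in Ccr2KO cells. Csf3, the granulocyte growth factor G-CSF, was the 1 gene at least 2-fold higher, at 0.30 at WT day 40 and −2.03 at WT day 28. In Ccr2KO cells it read −0.09 and −2.02 (limma adjusted p = 0.424), with −7.68 and −4.03 on the untreated WT and Ccr2KO arrays.

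The class II presentation list was lower through part of its members, with a median of −0.60 and 3 of 10 genes that fell. These were H2-Oa and H2-Ob, the chains of the peptide-loading modulator H2-O that B cells use, and H2-DMb2, a chain of the loading catalyst H2-DM. H2-Ob read −0.47 at WT day 40 and 1.81 at WT day 28 (−2.59 ± 0.19, limma adjusted p = 0.0165). The classical chain H2-Ab1, which some epithelial cells also express, read 6.88 and 7.28, and the invariant chain Cd74 read 6.56 and 6.61. Class I genes had a median of 0.29. Of 18 measured genes of the interferon-gamma response, 16 read above 0 (9587 of 16160 over all genes) with a median of 0.47, or 0.06 in the authors' deposited table, led by Cxcl9, a chemokine for activated T cells, at 1.54 at WT day 40 and 0.33 at WT day 28, whereas Irf8, a transcription factor of myeloid and B cells, read 2.38 and 3.48. The type I interferon list had a median of 0.08.

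Immediate early genes, which are switched on within minutes of a stimulus, had a median of 0.54 over 25 measured members in WT cells and 0.56 in Ccr2KO cells (0.14 in WT cells in the authors' deposited table), and none passed the model. Ier3, an early response gene that limits apoptosis, read 5.76 at WT day 40 and 4.52 at WT day 28 (limma adjusted p = 0.0896). Atf3, a stress-induced transcription factor, read 6.58 and 5.42 in WT cells and 6.22 and 5.08 in Ccr2KO cells, with 6.38 and 6.99 on the untreated WT and Ccr2KO arrays. Of 22 heat shock and unfolded protein response genes, 2 were at least 2-fold higher (9.09%, beside 2.43% of all genes). Hspa1a, an inducible HSP70 chaperone, read 5.02 at WT day 40 and 2.0 at WT day 28, and 4.88 and 1.40 in Ccr2KO cells, with 1.32 and 4.36 on the untreated WT and Ccr2KO arrays. The silica arrays were apart by day, while the untreated pair spanned nearly the same range (3.25 ± 0.98, limma adjusted p = 0.246). Hspb1, the small chaperone HSP27, read 7.47 and 6.35 in WT cells and 7.36 and 6.25 in Ccr2KO cells (1.11 ± 0.23, limma adjusted p = 0.132). Hspa5, the chaperone of the endoplasmic reticulum, had a WT difference of 0.29.

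Heat shock factors bind inverted repeats of a short pentamer. The core GAANNTTC, chosen after the differences had been seen and searched in the same windows, was present in 6 of 20 promoters of the heat shock and unfolded protein response list (30%) and in 7.95% of all promoters. The promoters of Hspa1a (chr17:34972107-34972406, minus strand, 1 match) and Hspb1 (chr5:135887669-135887968, plus strand, 2 matches) are shown, 5′ to 3′, as those of the members at least 2-fold higher at day 40, with the core in capitals.
Hspa1a: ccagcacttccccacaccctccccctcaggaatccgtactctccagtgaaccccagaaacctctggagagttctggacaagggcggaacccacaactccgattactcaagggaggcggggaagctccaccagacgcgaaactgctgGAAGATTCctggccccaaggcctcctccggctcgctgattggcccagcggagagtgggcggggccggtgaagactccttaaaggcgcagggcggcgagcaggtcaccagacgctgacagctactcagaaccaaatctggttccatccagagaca
Hspb1: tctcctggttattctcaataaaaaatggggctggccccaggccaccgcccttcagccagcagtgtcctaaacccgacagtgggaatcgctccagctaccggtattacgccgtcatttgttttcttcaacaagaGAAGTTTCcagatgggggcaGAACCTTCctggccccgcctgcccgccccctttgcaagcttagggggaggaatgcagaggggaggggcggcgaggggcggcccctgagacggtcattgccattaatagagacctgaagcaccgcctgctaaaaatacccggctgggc

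**Figure D4:**
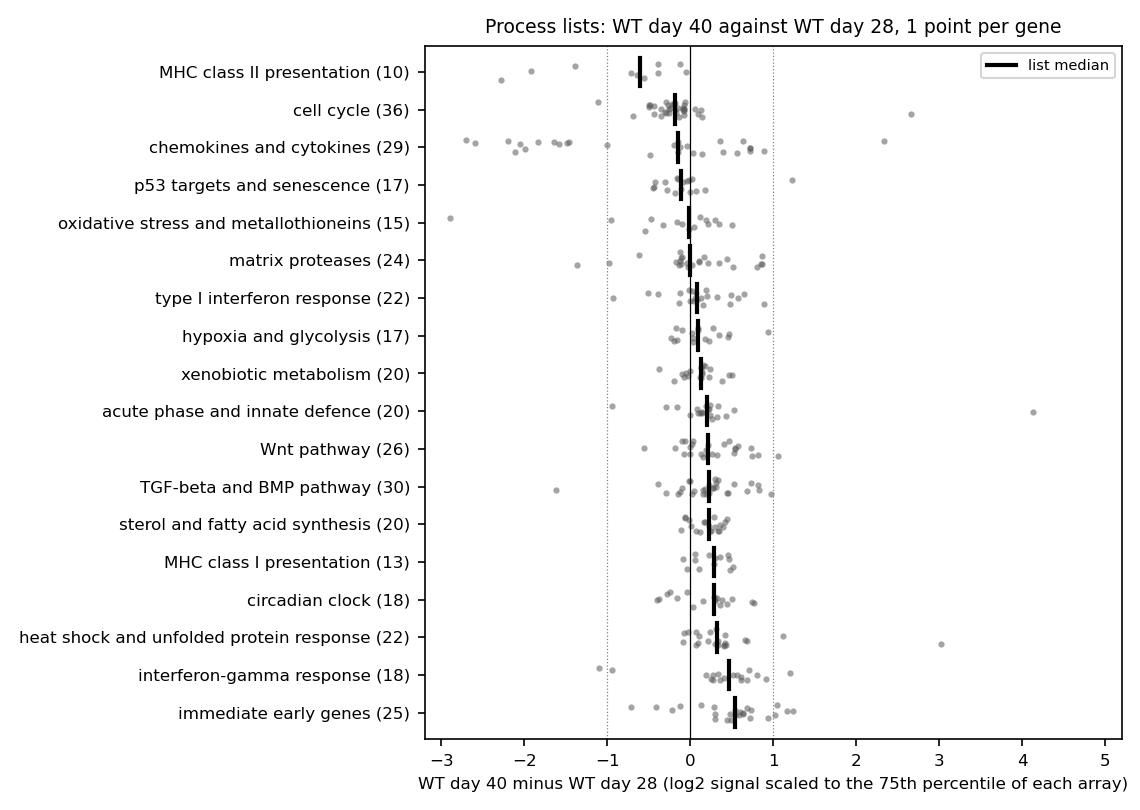
Log2 difference WT day 40 minus WT day 28 (x axis) for every measured gene of 18 process lists (1 point per gene, number of genes in brackets, black bars list medians, dotted lines 2-fold). The medians run from −0.60 for class II presentation to 0.54 for immediate early genes, and the chemokine and cytokine list is spread from −2.70 to 2.33.

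Cell cycle genes read slightly lower, with a median of −0.19 in WT and −0.51 in Ccr2KO cells. In WT cells 5 of 36 read above 0, beside 9587 of all 16160 genes. Mki67, the proliferation antigen Ki-67, read 1.99 at WT day 40 and 2.17 at WT day 28, and 1.77 and 2.43 in Ccr2KO cells, while Cdt1, a licensing factor of DNA replication, had a WT difference of −1.11. None of these genes passed the model. Relative to WT untreated, the list median was 1.90 at day 28 and 1.73 at day 40. Cdkn2a, the locus of the cell cycle inhibitors p16 and ARF, read −0.10 at WT day 40 and −1.32 at WT day 28, and 1.97 and 0.92 in Ccr2KO cells (limma adjusted p = 0.0946). Among redox genes, Slc7a11, the cystine transporter that feeds glutathione synthesis, fell, at −4.50 at WT day 40 and −1.60 at WT day 28 (−2.47 ± 0.27, limma adjusted p = 0.0357). Among matrix proteases, Adam8, a sheddase of myeloid cells, fell (2.98 and 4.35 in WT cells, limma adjusted p = 0.0395), and Adamts1, a protease that cleaves proteoglycans, rose (5.26 and 4.40, limma adjusted p = 0.043). Of the acute phase genes, Hamp, which encodes the iron hormone hepcidin, rose and was well above background at day 40 only, by at least 6.67-fold in WT cells (limma adjusted p = 0.0416). Saa3, a serum amyloid A of inflamed tissue, read 7.45 at WT day 40 and 7.23 at WT day 28.

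Of the 32 genes that rose, named here after their values were seen, Apold1 had the largest fitted difference among those well above background on both WT arrays. Apold1 encodes a regulator of endothelial junctions that is induced early after stress, and it read 3.69 at WT day 40 and 1.77 at WT day 28, and 3.90 and 2.01 in Ccr2KO cells. Both day 40 arrays lay above both day 28 arrays and above the untreated arrays, at 1.60 in WT and 1.65 in Ccr2KO cells (1.90 ± 0.11, limma adjusted p = 0.0154), and its 2 probes had WT differences of 1.86 and 1.91. Jam2, a junctional adhesion molecule of endothelium, read 2.91 and 1.87 in WT cells (limma adjusted p = 0.0413), and Npr3, the clearance receptor for natriuretic peptides, 0.59 and −0.48 (limma adjusted p = 0.0458). Glul, glutamine synthetase, read 4.11 at WT day 40 and 3.11 at WT day 28, and 4.26 and 3.38 in Ccr2KO cells (limma adjusted p = 0.0418). The cardiac muscle list divided, since Ryr2, the calcium release channel of heart muscle, rose and Mybpc3, a myosin-binding protein of heart muscle, fell. A further group of the 32 was well above background at day 40 only of the WT arrays. Among them were Fpr-rs4, a formyl peptide receptor relative (at least 10.1-fold higher in WT cells), and Cyp24a1, the vitamin D hydroxylase (at least 5.05-fold higher). These genes passed the filter through the day on which they read high, so their model calls are no separate support.

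The genes of the response to silica itself were picked by their Ccr2KO levels and then read in WT cells. They came from the 16160 genes kept for the WT comparison, without those of the blood lists. A gene not well above background on either WT silica array could not enter, so this filter may raise the WT counts above untreated. In all, 215 genes were at least 4-fold above untreated on both Ccr2KO silica arrays. In WT cells their median above untreated was 2.66 at day 28 and 2.77 at day 40. On each day 195 of 215 were at least 2-fold above untreated, beside 1600 of all 16160 genes at day 28 and 1325 at day 40. Between the days, 22 of them read at least 2-fold higher (10.2%) and 18 at least 2-fold lower (8.37%) at WT day 40 than at WT day 28. Over all genes these shares were 2.43 and 6.24%. The median difference was 0.14 for the 215 genes beside 0.06 over all genes. Il1rn, the interleukin 1 receptor antagonist, was among the 18, at −2.72 at WT day 40 and −0.54 at WT day 28, and Ubd, a ubiquitin-like modifier induced by cytokines, was among the 22, at 1.20 and −0.69. The 550 genes at least 2-fold below untreated on both Ccr2KO silica arrays had WT medians of −1.04 at day 28 and −1.02 at day 40. Of these, 10 were at least 2-fold higher (1.82%) and 21 at least 2-fold lower (3.82%) at WT day 40 than at WT day 28. Both shares lay below those of all genes.

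The most extreme single-gene differences outside the blood lists came from genes well above background on 1 of the 2 WT arrays. Il9, a cytokine of T cells and mast cells, was at least 49.0-fold higher at WT day 40 and well above background on no other array. Rasgrf1, an exchange factor for Ras, was at least 34.2-fold lower at WT day 40, with a second probe at 0.31 in WT cells, and it was not well above background on either Ccr2KO silica array. Htr7, a serotonin receptor, was at least 8.45-fold lower and fell (limma adjusted p = 0.0195). Of the 12 genes highest at WT day 40, 9 were well above background on no other array and 1 was so at Ccr2KO day 40, and of the 12 lowest, 6 were well above background on no array but WT day 28 and 3 were so at Ccr2KO day 28. In all, 151 of the 392 higher genes were well above background at WT day 40 but not at WT day 28, and 359 of the 1008 lower genes at WT day 28 but not at WT day 40, where the lowest such signal was also higher, at −4.86 against −5.89.

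Among the lowest genes measured on both WT arrays and in no list were receptors of myeloid cells, 3 of which were named after their values were seen. Igsf6, an immunoglobulin superfamily receptor of myeloid cells, read −1.0 at WT day 40 and 2.18 at WT day 28, and −1.43 and 1.43 in Ccr2KO cells (−3.02 ± 0.30, limma adjusted p = 0.0269). Sirpb1b, a signal-regulatory protein of myeloid cells, read −0.08 and 3.11 in WT cells (−3.07 ± 0.36, limma adjusted p = 0.0389), and C5ar1, the receptor for the complement fragment C5a, −4.24 and −1.35 (−2.73 ± 0.19, limma adjusted p = 0.0165). Each was lower on both day 40 arrays than on both day 28 arrays. Of the 418 genes that fell, 344 were in no blood list. Among the higher genes, 3 related Serpina1 genes, which encode alpha-1 antitrypsin, the inhibitor of neutrophil elastase, read higher together, with WT differences of 2.43 for Serpina1d, 2.01 for Serpina1c and 1.96 for Serpina1a and Ccr2KO differences of 1.17, 1.15 and 1.26. These genes are near-identical copies, so their probes may read the same transcripts, and none of the 3 passed the model.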

How the data were processed

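Per the labels, 1 RNA pool of 3 biological replicates per genotype and day was labelled with Cy3 and hybridised to a single array. The authors used one-colour arrays of design 028005 and a G2600D scanner, per the file headers. Spot intensity, background-subtracted and detrended, was extracted under the protocol GE1_1100_Jul11 of Feature Extraction 11.0.1.1, per the file headers, with array annotation of build mm9, from which no positions are printed. The submitters' processing notes name R 2.15.1. The deposited value table holds log2 of this processed intensity, unscaled between arrays, for 30574 probes (median absolute difference from the scanner values 4.2e-10). The medians of its WT columns were 9.82 for untreated, 9.80 for day 28 and 9.39 for day 40, and those of its Ccr2KO columns 9.52, 9.53 and 9.23.

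From the deposited intensity of 59305 spots that were not controls, outlier spots (109 to 195 per array) were removed, repeats averaged over 55681 probes, and log2 values lowered by the 75th percentile of their array. No spot was saturated. RefSeq names gave 1 symbol to 27503 probes. Probes were kept if they were well above background (the scanner file's own flag) on at least 1 of the 2 WT arrays. Each gene was then read from the brightest of its kept probes, which left 16160 genes, 4219 with several kept probes. The number of arrays, 1 per genotype and day, limits the precision. Where a gene was below background on 1 array, its fold is a nominal bound, set against its own signal there or, if higher, the lowest signal of any probe well above background on that array. WT was described by counts past 2-fold without a test. Day was tested with limma 3.58.1 (R 4.3.3, with version 1.17.8 of the package data.table) over both genotypes. Tables and figures were made with Python 3.11.15, numpy 2.4.6, pandas 2.3.3 and matplotlib 3.10.9. On simulated data for day 40 against day 28 over both genotypes (16160 genes, 50 changed per size), the fit recovered 6, 68, 90 and 94% of log2 changes of 1, 2, 3 and 4. It also called 11 unchanged genes. The simulated noise was independent between arrays, without an effect of slide row or genotype, so these rates do not cover such effects.

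Named genes were the 12 largest WT differences of each direction outside the blood lists, the 8 largest within them, up to 4 members of each list with the largest differences, and 17 genes of the tissue and disease. Genes named for clones and olfactory genes were left out of the largest differences, and not every gene of the rule is reported here. Genes that rose in the fit, the lower genes in no list and the promoter motifs were named after their values were seen. The members and the 46 gene lists were chosen with earlier results of these data known. The list of sex-linked genes had 3 measured members, with a median WT difference of −0.00, and is not otherwise used. Medians of the lists that the report gives without one were 0.18 for matrix crosslinking and proteoglycans, 0.19 for smooth muscle, 0.02 for cardiac muscle, 0.01 for mesothelium, 0.29 for venules and lymphoid stroma, 0.34 for transitional alveolar epithelium, 0.32 for basal cells, −0.01 for matrix proteases, 0.20 for the acute phase, 0.23 for the TGF-beta and BMP pathway, 0.21 for the Wnt pathway, 0.32 for heat shock and unfolded protein response, −0.15 for chemokines and cytokines, −0.02 for oxidative stress, 0.09 for hypoxia, −0.11 for p53 targets, 0.29 for the circadian clock, 0.23 for sterol and fatty acid synthesis and 0.13 for xenobiotic metabolism. Promoters were taken from RefSeq (GRCm38.p6). Motifs of 3 other factors were searched on both strands as well: AP-1 (TGACTCA) in 0 of 20 promoters of immediate early genes and 5.17% of all promoters, the interferon-stimulated response element in 10 of 17 of the type I interferon list and 3.49% of all, and NF-kappaB in 3 of 134 of the leukocyte lists and 1.43% of all. Alternatives were normexp background correction (median spot signal, offset 50), quantile normalization, another percentile set, the authors' table, other background filters, averaging a gene's probes, a robust prior with an intensity trend, a term for the slide row, the 4 silica arrays alone, leaving out each array and leaving out genes of the blood lists.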

Additional observations from a re-analysis of the deposited data

Results flagged for a closer look

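For 4 of the genes chosen by the naming rule, the WT and the Ccr2KO difference passed 2-fold in opposite directions (log2 difference, day 40 minus day 28). Over all genes this held for 12 of the 392 higher in WT and 51 of the 1008 lower in WT. With 1 array per genotype and day the difference between the genotypes was not tested, and any value rests on single arrays. Rpusd2, a pseudouridine synthase domain gene, had 4.63 in WT and −1.77 in Ccr2KO cells, and was well above background at WT day 40 and Ccr2KO day 28 only. Lce1a1, a gene of the cornified envelope of skin, had −5.9 in WT and 1.84 in Ccr2KO cells, but was well above background at WT day 28 only, so the Ccr2KO value is a difference of signals not above background. Tbx10, a T-box transcription factor gene, had 2.24 in WT and −1.11 in Ccr2KO cells, and was well above background on all 6 arrays. Ttk, a mitotic spindle checkpoint kinase, had 2.65 in WT and −1.34 in Ccr2KO cells, and was well above background at WT day 40 and Ccr2KO day 28 only. The sizes for Rpusd2, Lce1a1 and Ttk rest on signals that were not above background on at least 1 side.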

How the results depend on the processing

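No paired analysis was possible because each genotype and day has 1 array, so no 2 groups share 2 replicate numbers. The cause of the shifts that follow was not tested. The WT count of 392 genes at least 2-fold higher was 210 with normexp background correction, 67 in the authors' table, 241 where both WT arrays were above background and 744 without a filter. The WT count of 1008 lower genes was 570 with normexp and 649 where both WT arrays were above background. The Ccr2KO count of 389 higher genes was 128 with normexp, 83 in the authors' table, 242 where both WT arrays were above background and 1391 without a filter, and that of 745 lower genes was 485 with normexp. The leukocyte median of −2.08 was −1.60 with normexp and −2.39 in the authors' table, and the stromal median of 0.23 was 0.17 with quantile normalization and −0.16 in the authors' table, with −0.33 over all genes. The 450 genes of the fit over both genotypes (32 that rose and 418 that fell) became 687 with normexp (136 and 551), 682 with an intensity trend and robust prior (126 and 556), 237 without a filter (16 and 221) and 0 with a term for the slide row (the row as a block). Leaving out 1 array gave 0 to 582, with 0 without WT day 28, WT day 40 or Ccr2KO day 28 and 25, all higher, without Ccr2KO day 40. The fit with the row term and the fit without Ccr2KO day 28 are the same fit. Rasgrf1 turned to 0.31 where both WT arrays had to be above background, because another of its probes was then read. Of 1764 values of 265 named genes under alternatives, 1430 moved by less than the spread of the fit and 333 by more. One array per genotype and day, and signals near background on the dimmer day 40 array, limit every WT value.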
